A study of Drosophila melanogaster with 3 samples.

Results

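Peaks of the chromatin protein Dek that lie on the upstream side of promoters belonging to 1 gene are described here. The data are chromatin immunoprecipitation sequencing (ChIP-seq) of whole *Drosophila melanogaster* embryos of mixed sex, collected from 0 to 24 h of age. The embryos came from a transgenic line that stably expresses Dek fused to a C-terminal GFP, and an anti-GFP antibody precipitated the chromatin. There were 3 biological replicates of this 1 line, numbered as in the labels, and no other condition was compared. Of the 4736 peaks in the authors' list that passed the irreproducible discovery rate (IDR) threshold, 1351 had their summit within 500 bp of a transcription start site of exactly 1 protein-coding gene and on the upstream side of that gene's nearest start site. These 1351 summits, called member summits below, made up 28.5% of the list (95% exact Clopper-Pearson interval 27.2 to 29.8%, counting error only). They belonged to 1229 of the 13968 protein-coding genes. The other summits fell on the downstream side of a single-gene start site (266 summits), near start sites of 2 or more genes (920 summits) or near none (2199 summits). Whole embryos mix all embryonic cell types, so no value can be assigned to one of them, and more cells with Dek at a site cannot be told apart from more Dek per cell.

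DEK proteins bind chromatin, and the fly protein is known as a histone chaperone that also acts as a coactivator of the ecdysone receptor. A promoter is the stretch of DNA around a start site where RNA polymerase II and its general factors assemble. In flies the sequence just before an active start site is commonly kept free of nucleosomes and is rich in A and T. The motifs found there differ by gene type: housekeeping promoters often carry the DNA replication-related element (DRE), bound by DREF, or Motif 1, bound by M1BP, whereas developmental promoters more often carry a TATA box, an Initiator at the start site or GAGA elements, bound by the GAGA factor.

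Promoters of 7 of the 15 strongest members, examples chosen after their values were seen, show where the summit sits relative to the start site and how A and T are laid out beside it. Each line runs 5′ to 3′ on the gene's own strand in RefSeq sequence of Release 6 (dm6). Capitals mark unbroken runs of 8 or more A and T. In the first 6 lines the summit is base 41 and the start site is the tenth base from the end, and in the ph-p line the summit is base 51.
CG14100, chr3L:19590515-19590653, minus strand: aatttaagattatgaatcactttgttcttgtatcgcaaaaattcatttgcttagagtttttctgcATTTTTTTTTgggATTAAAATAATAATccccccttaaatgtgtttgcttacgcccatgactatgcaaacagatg
Ugalt, chrX:2703843-2703928, minus strand: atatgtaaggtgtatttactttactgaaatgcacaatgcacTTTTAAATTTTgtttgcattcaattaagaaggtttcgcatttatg
CG18549, chr3R:12449116-12449305, plus strand: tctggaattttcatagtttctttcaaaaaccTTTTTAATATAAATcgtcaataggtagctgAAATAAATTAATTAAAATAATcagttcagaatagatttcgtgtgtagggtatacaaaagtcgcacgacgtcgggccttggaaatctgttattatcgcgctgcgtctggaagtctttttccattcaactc
Gapdh2, chrX:15867945-15868154, plus strand: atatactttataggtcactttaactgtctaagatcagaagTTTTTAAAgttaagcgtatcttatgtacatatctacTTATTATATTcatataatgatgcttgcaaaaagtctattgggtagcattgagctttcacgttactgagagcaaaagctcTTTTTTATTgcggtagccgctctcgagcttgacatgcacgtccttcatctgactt
CG1635, chr3R:31588503-31588682, plus strand: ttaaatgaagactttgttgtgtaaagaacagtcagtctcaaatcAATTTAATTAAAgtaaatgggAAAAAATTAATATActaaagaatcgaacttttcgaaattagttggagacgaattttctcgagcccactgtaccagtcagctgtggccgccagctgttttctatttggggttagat
msi, chr3R:25515849-25516127, plus strand: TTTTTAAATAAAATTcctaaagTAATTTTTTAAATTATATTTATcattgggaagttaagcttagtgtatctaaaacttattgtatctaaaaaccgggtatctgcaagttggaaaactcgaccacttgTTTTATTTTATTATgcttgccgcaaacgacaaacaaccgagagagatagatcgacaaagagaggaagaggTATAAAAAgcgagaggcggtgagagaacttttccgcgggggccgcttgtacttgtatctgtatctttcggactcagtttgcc
ph-p, chrX:2137285-2137385, minus strand: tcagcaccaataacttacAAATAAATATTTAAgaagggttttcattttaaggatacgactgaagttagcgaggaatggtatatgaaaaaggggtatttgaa

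The printed stretch of CG14100 held 30.9% G and C and that of Ugalt 27.9%. Those of CG18549, Gapdh2, CG1635 and msi held 34.7, 35.2, 35.0 and 36.9%, and the window around the ph-p summit 31.7%. The longest capital run was 22 bases at msi and 21 bases at CG18549.

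Each replicate list holds 30000 peaks and no read counts, so the depth is unknown. For replicate values the 4736 strongest peaks of each replicate were classed in the same way, and these are called strong peaks. Replicate 3 stood apart from the others: 508 of its strong peaks fell on the downstream side of single-gene start sites, against 323 in replicate 2 and 172 in replicate 1, and its member summits held 38.3% G and C within 100 bp, against 35.2% in replicate 2 and 33.8% in replicate 1. Results were therefore also computed without each replicate in turn, which means with only those IDR summits that lie inside strong peaks of both other replicates.

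The strongest member summit was also the strongest of all 4736. It lay 89 bp before the start site of CG14100 on arm 3L (summit at base 19590613) and had a signal value of 4883 in the IDR list, the authors' own score for a peak, in a unit that the files and labels do not name. The replicate lists scored the peak at this place at 1785, 1731 and 1402 in replicates 1, 2 and 3, which made it number 1, number 1 and number 4 of 30000 peaks. Signal values are set by each list's own processing, so places rather than values are compared between lists.

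Next came mRpL41, which encodes a protein of the mitochondrial ribosome. Its summit lay 137 bp before the start site, with a signal of 4036 in the IDR list and places 5, 3 and 7 in replicates 1, 2 and 3. Ugalt, the UDP-galactose transporter, had its summit 36 bp before the start site on X, with a signal of 3875 and places 9, 5 and 2. The summit of ph-p, a subunit of Polycomb repressive complex 1, was the farthest from its start site among the 100 strongest members at 480 bp, and stood at places 10, 10 and 5. At CG18549 the places were 27, 9 and 9, so replicate 1 ranked it lower than the others.

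Gapdh2, the glycolytic enzyme glyceraldehyde-3-phosphate dehydrogenase, had a summit 160 bp before its start site on X. Its peak scored 2776 in the IDR list and 670.1, 1077 and 1031 in replicates 1, 2 and 3, at places 42, 13 and 13. The remaining genes among the 15 strongest were Fkbp14, px, CG1888, eIF6, CG1635, msi, CG31145, gish and larp, with IDR signals from 2129 to 2879. Among them, Fkbp14 is a prolyl isomerase of the endoplasmic reticulum, eIF6 keeps large ribosomal subunits from joining small ones too early, msi encodes the RNA-binding protein Musashi, gish a casein kinase and larp an RNA-binding protein of the La family. The peak of CG31145 varied most in place, at 12, 35 and 95 in replicates 1, 2 and 3. In contrast, larp stood at 38, 39 and 37. In every replicate the summits lay on the upstream side of the same start site at all 15 promoters. That of ph-p in replicate 3 lay at position -506 bp, just outside the window.

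**Figure D1:**
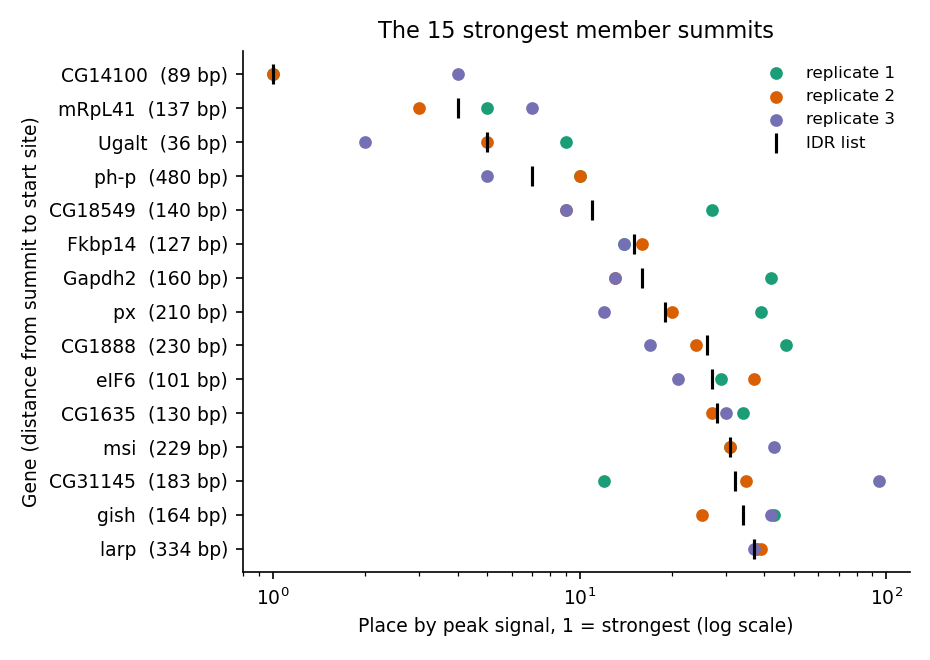
Place of the 15 strongest member summits by peak signal, with 1 the strongest, on a log axis. Coloured points are the 3 replicates, black bars the IDR list, and the number after each gene is the distance of the IDR summit from the start site. CG14100 stands at places 1, 1 and 4 and CG31145 at places 12, 35 and 95.

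Among the 100 strongest members, the nearest to their start sites were Ugalt at 36 bp, CG7639 at 67 bp and Alg3, a mannosyltransferase of N-glycan synthesis, at 72 bp. The farthest were ph-p at 480 bp, CG5953 at 398 bp and cbt, a zinc finger transcription factor, at 391 bp. Just inside the 500 bp bound of the rule lay summits of lectin-28C at 500 bp (signal 166.7), east at 499 bp (signal 236.5) and pyd at 499 bp (signal 239.2). Just outside lay summits before CG42336, 1 bp beyond the bound (signal 287.4), ITP at 502 bp (signal 448.9) and Samuel at 502 bp (signal 194.9).

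Dek summits were far denser before single-gene start sites than after them. The sequence that satisfies the rule covered 6.04 Mb and held 223.7 IDR summits per Mb, against 36.3 per Mb of the 7.33 Mb on the downstream side. Sequence near start sites of 2 or more genes held 463.6 per Mb of 1.985 Mb, and the remaining 122.2 Mb held 18.0 per Mb. The 4736 strongest peaks of each replicate gave 214.6, 229.0 and 202.5 member summits per Mb in replicates 1, 2 and 3, against 23.5, 44.1 and 69.3 per Mb on the downstream side. All 3 replicates were denser on the upstream side, and the ranges did not overlap.

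The ratio of upstream over downstream density was 9.14, 5.20 and 2.92 in replicates 1, 2 and 3, with a mean of 5.76 ± 3.15 (SD, n = 3), and 6.16 in the IDR list. An exact two-sided sign-flip permutation test over 3 replicates cannot give a p below 0.25, and it gave 0.25 for this ratio, so no comparison here can pass a threshold of 0.05. Without replicate 3 the ratio of the IDR list was 11.85. It was 9.95 in the strongest 2368 IDR peaks and 4.09 with a promoter window of 1000 bp. Member summits were as dense as 0.491 ± 0.058 times those near 2 or more genes and 11.9 ± 1.36 times those away from promoters (SD, n = 3, both p = 0.25 by the same exact permutation test).

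The share of members was 27.4, 29.2 and 25.8% in replicates 1, 2 and 3 (27.5 ± 1.69%, SD, n = 3), close to the 28.5% of the IDR list. On the 5 large chromosome arms, member density in the IDR list ranged from 213.0 per Mb on X to 245.0 per Mb on 2L. Arm 4, which is largely heterochromatic, had 1 member in 0.0514 Mb of eligible sequence, and its replicate densities of 0.0, 58.3 and 38.9 per Mb rest on at most 3 summits each. Member summits lay outside every protein-coding gene in 874 cases. Another 389 lay inside the member gene itself, before an internal start site, of which 34 also lay inside a different gene. The remaining 88 lay inside a different gene alone. A non-coding start site was also within 500 bp of 90 members.

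Most member summits lay between 51 and 250 bp before the start site. The median distance in the IDR list was 163 bp with quartiles of 89 and 270.5 bp, and 60.1% of members lay 51 to 250 bp away. Within 50 bp, a narrower stretch, lay 11.8%, and 28.1% lay beyond 250 bp. By bins of 50 bp, replicate 1 had 94 summits within 50 bp, against 176, 187, 192 and 166 in the bins up to 250 bp. Replicate 2 had 198, against 247, 245, 160 and 150, and replicate 3 had 226, against 246, 193, 160 and 140. Fewer summits next to the start site were thus not common to all replicates. The replicates also differed in the median distance, with medians of 200.0, 151.0 and 134.0 bp in replicates 1, 2 and 3 (161.7 ± 34.3 bp, SD, n = 3). The order of these medians was also the order of the median peak widths, which were 416, 390 and 336 bp, and the part of the widths in the distances was not tested. At the 702 members found among the strong peaks of all 3 replicates, the replicate summits themselves lay at medians of 185.0, 171.5 and 165.0 bp before the start site, a narrower range. The median IDR signal was highest in the bin of 151 to 200 bp, at 371.0, against 282.4 and 289.3 in the bins beside it. It was lowest within 50 bp, at 225.5, and next highest at 451 to 500 bp, at 316.8. Replicate signals were not divided by distance.

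**Figure D2:**
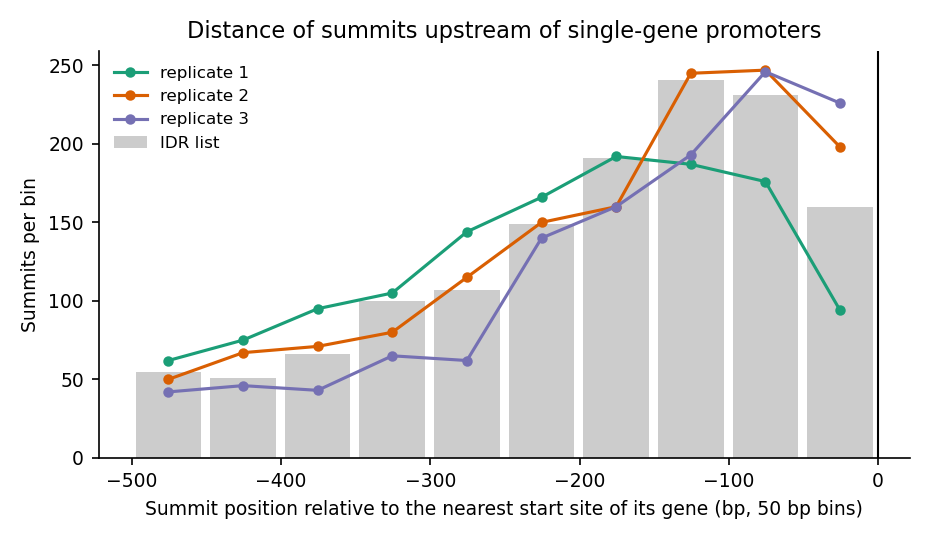
Number of member summits in bins of 50 bp by position before the nearest start site of the gene, which is at 0. Grey bars are the IDR list and coloured lines the 4736 strongest peaks of each replicate. Replicate 1 has 94 summits within 50 bp, replicate 2 has 198 and replicate 3 has 226.

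Members spanned the range of signal values, and their rank against the other classes depended on the class. Their IDR signals ran from 164.0 to 4883 with a median of 277.1 and quartiles of 209.4 and 428.3. They supplied 35 of the 100 strongest and 316 of the 1000 strongest IDR peaks. As percentiles of each list's own signals, the median member stood at 54.5, 52.9 and 52.9 in replicates 1, 2 and 3. The median peak near 2 or more genes stood at 64.9, 57.6 and 57.8, above the members in all 3, and the difference of members minus those peaks was -6.68 ± 3.22 percentile points (SD, n = 3). Against peaks away from promoters the difference was 7.66 ± 4.70 points, positive in all 3 replicates. The exact permutation p was 0.25 for both.

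Against peaks on the downstream side, members stood 11.7, 17.5 and 14.8 percentile points higher in replicates 1, 2 and 3 (14.7 ± 2.94, SD, n = 3, exact permutation p = 0.25) and 15.4 points higher in the IDR list. Its sign was not stable. It was -1.73 points within the strongest 2368 IDR peaks and -5.50 points without replicate 3, against 6.03 points without replicate 2 and 24.8 points without replicate 1.

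Of the 1351 members, 702 (51.96%) had their summit inside a strong peak of all 3 replicates, 473 of 2 replicates, 165 of 1 and 11 of none. The share found in all 3 was 32.7% for downstream-side summits, 51.1% for those near 2 or more genes and 49.4% for those away from promoters. Members were found among the strong peaks of replicates 1, 2 and 3 in 78.0, 87.7 and 72.4% of cases. Recurrence followed signal. When members were divided by signal into 4 groups of 337 or 338, 91.1% of the strongest group were found in all 3 replicates, against 74.0%, 38.6% and 4.14% in the next 3. The IDR list was itself derived from the replicate lists, so recurrence is a description of it and not an independent check.

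The summits of members lay in sequence poor in G and C. Within 100 bp of the IDR summits G and C made up 35.2%, against 43.5% in the windows 500 bp to either side, and 80.1% of members had less at the summit than beside it. The difference was -9.74, -8.34 and -5.03 percentage points in replicates 1, 2 and 3 (-7.70 ± 2.41, SD, n = 3, exact permutation p = 0.25), so replicate 3 showed the shallowest dip, with 38.3% at its summits. Downstream-side summits gave -4.94, -1.34 and 3.19 points. Members minus downstream-side summits came to -6.67 ± 1.73 points, negative in all 3 replicates (exact permutation p = 0.25). That difference was -6.05 points in the IDR list, -3.797 points without replicate 3, -3.56 points in the strongest 2368 IDR peaks and -3.11 points with a promoter window of 1000 bp. Summits near 2 or more genes gave -15.5 ± 2.47 points, a deeper dip than that of members in every replicate. Summits away from promoters gave -6.55 ± 2.04 points, and members minus these came to -1.15 ± 0.384 points, negative in all 3 replicates.

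Named members followed the same layout to differing degrees. The summit window of msi held 23.4% G and C, against 29.3% in its flanks. That of Ldh, lactate dehydrogenase, held 22.4%, against 50% in its flanks. At Ugalt the window held 45.8% against 49.5% beside it. The rest of the members, beyond the 80.1% that were lower, did not dip. Examples are Kdm2, a histone demethylase, with 64.2% at the summit and 44.03% beside it, and Top1, DNA topoisomerase I, with 61.7% at the summit and 38.6% beside it. No peak of replicate 1 covered either of these summits.

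Aligned on the start site, the 1314 promoters with a member summit reached their lowest G and C content, 32.4%, in the 10 bp bin that starts 250 bp before it. The single-gene promoters without any IDR summit, 8687 of them with complete sequence, reached theirs, 37.0%, at 190 bp before it. Both troughs were flat, so the 2 positions do not set the promoters apart. Promoters with a member held 32.5% at 190 bp, and those without a summit 37.1% at 250 bp. The curves crossed between the bins that start 120 and 110 bp before the start site. Nearer to it, promoters with a member held more, 47.0% against 42.05% in the bin at 60 bp. The content of the whole 250 bp before the start site thus hardly differed: 38.8% in promoters with a member and 39.2% in those without. That difference was -0.406, -0.801 and 1.04 points in replicates 1, 2 and 3 (-0.0546 ± 0.972, SD, n = 3, exact permutation p = 1.0), and its sign was not stable across replicates. With a promoter window of 200 bp it was -3.66 points. The start sites were chosen unlike: the one nearest the summit for members, and the one with the most transcripts for each gene without a summit. A gene without a summit was counted if any base before its start sites allows a member. Its start site used here can therefore lie near that of another gene. The effect of these choices was not tested.

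**Figure D3:**
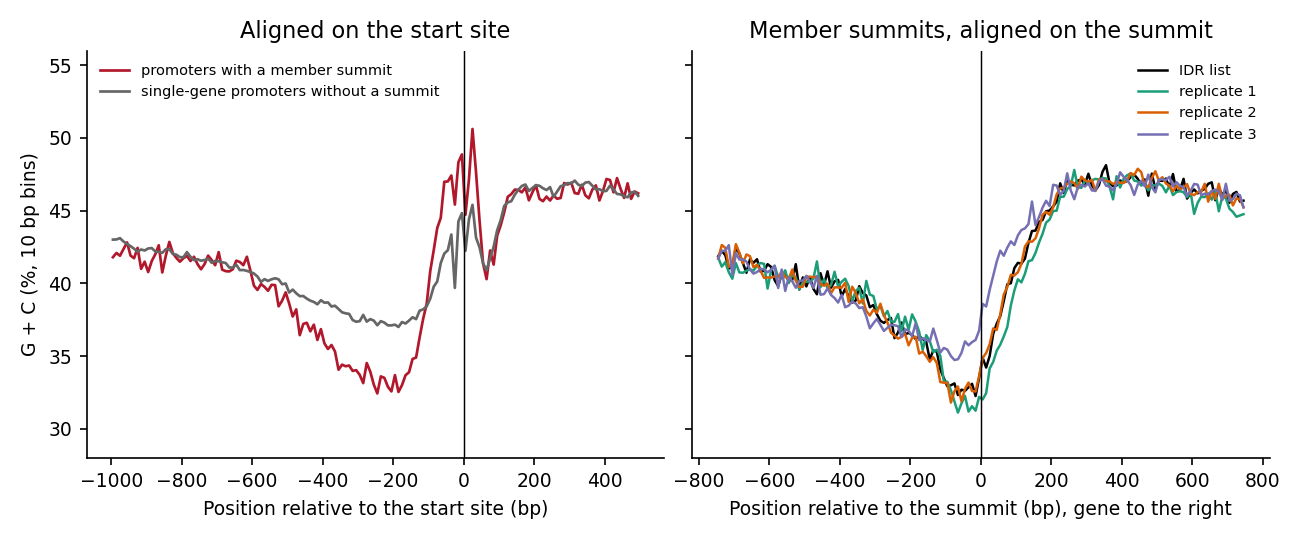
Share of G and C in bins of 10 bp. The left panel is aligned on the start site, with 1314 promoters that have a member summit in red and 8687 single-gene promoters without an IDR summit in grey, and the red curve falls to 32.4% where the grey one stays at or above 37.0%. The right panel is aligned on the member summits of the IDR list and of each replicate, with the gene to the right, and replicate 3 is lowest at 34.7% where the others fall to between 31.1 and 32.3%.

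The promoters of Jwa and CG6966 show the housekeeping motifs that were counted next, on the gene's own strand in RefSeq Release 6 (dm6). They were chosen after their values were seen, as strong members with the motif within 250 bp before the start site, and capitals mark the motif.
Jwa, DRE, chr2L:18705870-18705937, minus strand: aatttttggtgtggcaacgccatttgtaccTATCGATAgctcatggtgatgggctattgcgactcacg
CG6966, Motif 1, chr3R:15095676-15095743, minus strand: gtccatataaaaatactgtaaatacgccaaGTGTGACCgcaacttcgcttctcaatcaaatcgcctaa

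The DRE of Jwa (TATCGATA) starts 204 bp before the start site, and its summit lies 112 bp before that site with an IDR signal of 971.9 and places 269, 289 and 226 in replicates 1, 2 and 3. The Motif 1 match of CG6966 (GGTCACAC, here on the other strand) starts 82 bp before the start site, and its summit lies 251 bp before that site with an IDR signal of 850.5 and places 544, 274 and 256.

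Motif matches were letters found on either strand in the window from 250 bp before to 50 bp after the start site, and a match is not a bound site. No motif named here contains another. As for G and C, the start site was the one nearest the summit for members. For genes without a summit and for all genes it was the one with the most transcripts. DRE was found at 8.83% of promoters with a member, against 5.89% of single-gene promoters without a summit and 9.23% of all protein-coding genes. Motif 1 was found at 9.51%, against 4.17% and 7.78% in the same order. Motif 7 (CANCNCTA), another motif of housekeeping promoters, was found at 20.0%, against 10.3% and 15.6%. Over the replicates, the difference of members minus promoters without a summit was 3.16 ± 1.06 points for DRE, 4.95 ± 1.52 points for Motif 1 and 8.80 ± 1.48 points for Motif 7 (SD, n = 3). Each was positive in all 3 replicates with an exact permutation p of 0.25. The DRE difference of 2.94 points in the IDR list depended most on the setting. It was 1.29 points without replicate 2, 0.631 points without replicate 3, 7.18 points with a 200 bp window, 1.83 points with a 1000 bp window and -0.553 points in the strongest 2368 peaks. The Motif 1 difference was 5.35 points in the IDR list, 3.02 points without replicate 2, 3.27 points without replicate 3 and 2.30 points in the strongest 2368 peaks. That of Motif 7 was 9.68 points in the IDR list and 5.69 points in the strongest 2368.

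Motifs of developmental promoters split. A TATA box (TATAAA, sense strand, starting 45 to 15 bp before the start site) was found at 4.26% of promoters with a member, against 11.6% of those without a summit and 9.16% of all genes. The replicate difference was -7.58 ± 0.401 points (SD, n = 3, exact permutation p = 0.25). GAGA elements (GAGAGAG) went the other way, at 13.0% against 6.27% and 6.15%, with a replicate difference of 7.07 ± 1.19 points and the same p. The GAGA difference was 6.74 points in the IDR list, 10.2 points in the strongest 2368 peaks and -1.38 points with a window of 200 bp, so its sign depended on the window. The Initiator (TCAGT, sense strand, at the start site) was found at 15.2%, against 14.2% and 11.9%, and its difference of 1.02 ± 0.975 points was about the size of its spread (exact permutation p = 0.5). The early zygotic motif CAGGTAG, bound by Zelda, was rare in promoters with a member, at 0.533%, against 1.86% of promoters without a summit and 1.68% of all.

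The motifs changed with the strength of the member summit. In the replicates, GAGA elements were found at 23.2 ± 1.505% of promoters in the strongest of the 4 signal groups of members and 8.74 ± 0.856% in the weakest, a difference of 14.5 ± 1.12 points (SD, n = 3). The Initiator followed, at 22.4 ± 1.97% and 13.1 ± 1.24%. Housekeeping motifs ran in the opposite direction. DRE was found at 4.31 ± 1.11% of the strongest group and 11.7 ± 2.91% of the weakest, Motif 1 at 5.03 ± 0.355% and 10.7 ± 1.81%, and Motif 7 at 12.1 ± 0.835% and 21.9 ± 3.22%. Each of these 5 motifs differed with the same sign in every replicate, with an exact permutation p of 0.25. The TATA box was found at 4.10 ± 0.204% of the strongest group and 3.90 ± 0.637% of the weakest, a difference of 0.199 ± 0.457 points (exact permutation p = 0.5).

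In the IDR list the strongest-minus-weakest difference was 14.5 points for GAGA elements, -8.02 points for DRE, -7.43 points for Motif 1 and -13.1 points for Motif 7. Without replicate 1 the DRE difference was -14.5 points and the Motif 1 difference -11.3 points. With the 200 bp window the GAGA difference was 4.75 points, and with the 1000 bp window the Motif 7 difference was -7.01 points. Strong members also lay farther from the start site, with a median of 196.5 bp in the strongest group and 124.5 bp in the weakest, and held 33.4% G and C at the summit, against 36.7%. The part of distance in the motif shares was not tested.

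**Figure D4:**
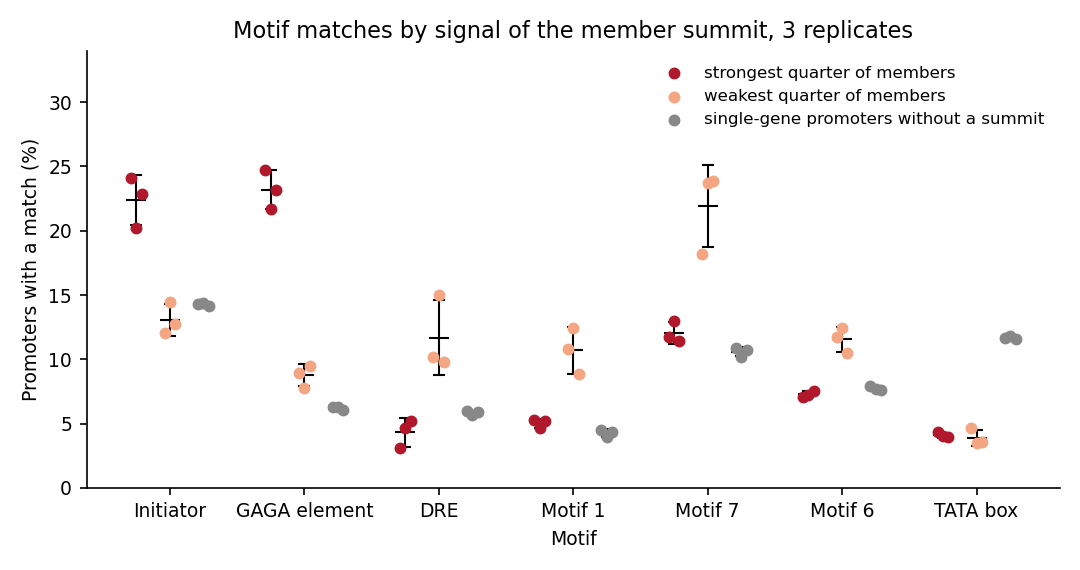
Share of promoters with each motif in the window around the start site. Points are the 3 replicates for the strongest of 4 signal groups of members (dark red), the weakest (light red) and single-gene promoters without a summit in that replicate (grey), with mean and SD as black bars. GAGA elements average 23.2% in the strongest group and 8.74% in the weakest, and DRE 4.31% and 11.7%.

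Around the summits themselves, DRE was found within 100 bp of 6.81% of IDR members, against 0.962% of the windows 500 bp upstream and 0.148% of those 500 bp downstream. Motif 1 was found at 5.55%, against 1.04% and 0.814%, and at 0 of the 338 summits of the strongest IDR group. In the strongest groups of replicates 1, 2 and 3 it was found at 0.309, 0.867 and 0.980% of summits. A runs (AAAAAAA) were found at 24.3% of summits, against 16.6% upstream and 16.7% downstream. Repeats of CA (CACACACA) ran the other way, at 2.00%, against 3.55% and 11.1%. In the replicates DRE was at 4.71, 8.03 and 7.11% of member summits and Motif 1 at 3.40, 6.73 and 5.97%, so replicate 1 was lowest for both. Away from promoters the same windows held DRE at 0.364% and Motif 1 at 0.318% of summits. Near 2 or more genes, DRE was found at 9.78% and Motif 1 at 5.98%. On the downstream side, DRE was found at 3.01% and Motif 1 at 5.26%, the second close to the value of members. A runs were as frequent in the other classes, at 24.8% on the downstream side, 23.3% near 2 or more genes and 28.9% away from promoters. GAGA elements were found at 4.07% of member summits, against 3.70% upstream and 5.33% downstream of them. In the IDR list they were found around 5.33% of summits in the strongest group and 5.62% in the weakest. The order of the promoter window was thus absent at IDR summits, but it was seen in all 3 replicates. Their summit shares were 6.08 ± 2.08% in the strongest group and 3.93 ± 1.45% in the weakest. The difference was 2.15 ± 0.793 points (SD, n = 3, exact permutation p = 0.25).

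Among genes, 8.8% of all protein-coding genes had a member summit, 22.8% had any IDR summit within 500 bp of a start site, and 11.7% of the genes whose surroundings allow a member had one. These shares are the background for the gene lists. A gene can stand in more than 1 list. In the replicates 1154, 1280 and 1133 genes had a member (8.51 ± 0.569%, SD, n = 3).

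Glycolysis and the tricarboxylic acid cycle stood highest of the 39 lists, with a member at 10 of 21 genes (47.6%, exact interval 25.7 to 70.2%), and 44.4 ± 2.75% in the replicates (SD, n = 3). Of the 15 genes in the list whose surroundings allow a member, 66.7% had one. After Gapdh2 came Eno, the enolase, with a signal of 1595 at 210 bp and places 77, 62 and 119 in replicates 1, 2 and 3. Hex-A, the hexokinase, had a signal of 1232 at 178 bp and places 187, 120 and 215. Lactate dehydrogenase (Ldh) had a signal of 1010 at 189 bp and places 218, 233 and 255. These 4 glycolytic genes were thus strong in all 3 replicates. Pgk, PyK and Tpi, further glycolytic enzymes, had signals of 607.3, 264.6 and 212.1. The cycle's enzymes ScsbetaA, Idh3b and Scsalpha1 had 261.9, 246.3 and 199.0, in the range of PyK and Tpi. The 11 member summits of the list had a median signal of 589.4, against 277.1 over all members.

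The Notch pathway and its E(spl) targets had a member at 10 of 24 genes (41.7%, exact interval 22.1 to 63.4%), and 34.7 ± 2.41% in the replicates. No other IDR summit class added a gene, since 10 genes of the list had any promoter summit. The receptor Notch (N) had a signal of 298.8 at 131 bp, and its nuclear partners Su(H) and mam had 236.7 and 429.2. No peak of replicate 2 covered the Su(H) summit, and at place 5688 it was not among the strong peaks of replicate 3. Among regulators, numb, which limits Notch in one daughter of a dividing precursor, had a signal of 1004 at 245 bp and places 144, 258 and 343. The ubiquitin ligases neur and mib1, which activate the ligands, had signals of 599.3 and 326.9, and the protease kuz, which cuts the receptor, had 388.7. The corepressor gro had a signal of 714.4 at 164 bp of an internal promoter and a weaker summit of 255.5 before its first one. Among the targets, E(spl)m3-HLH had a signal of 582.2 but no peak of replicate 3 covered its summit, and E(spl)m7-HLH had 299.1.

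Cytosolic ribosomal protein genes differed from both in position. A member was found at 25 of 86 genes (29.1%, exact interval 19.8 to 39.9%; 25.2 ± 2.69% in the replicates), among 60 with any promoter summit. Their 26 member summits lay close to the start site, at a median of 44.5 bp with a range of 6 to 228 bp, and 23 of them within 100 bp. The replicate medians were 80, 27 and 26 bp for the list, against 200.0, 151.0 and 134.0 bp over all members, and lower in each replicate. The strongest were RpL23A with a signal of 657.0 at 68 bp, RpL11 with 614.0 at 33 bp and RpL22 with 508.5 at 52 bp. Replicate 1 ranked these lowest, with RpL11 at places 1434, 639 and 266 and RpL22 at places 1628, 785 and 464 in replicates 1, 2 and 3. G and C at the summits averaged 42.0%, against 35.2% over all members. Translation factors had a like short distance, with a median of 42.0 bp over 7 summits (61.7 ± 15.7 bp in the replicates), and oxidative phosphorylation genes 37.0 bp over 7 summits (75 ± 43.4 bp).

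Among signalling and growth genes the lists lay on both sides of the 8.8% background. TGF-beta genes had a member at 1 of 19 (5.26%), with a replicate mean of 7.018 ± 3.039% (SD, n = 3). Wnt and Hedgehog genes had one at 3 of 36 (8.33%), close to the background. Of the genes in that list whose surroundings allow a member, 11.54% had one, against 11.7% of all such genes. In the replicates the Wnt and Hedgehog list averaged 12.04 ± 3.208%, above the 8.51% of all genes. The following lists had higher shares in the IDR list. Epidermal growth factor, FGF and JAK/STAT genes had a member at 8 of 35 (22.9%), led by the ligand spi with a signal of 1014 and the antagonist aos with 529.1, whose summit no peak of replicate 1 covered. Insulin and TOR genes had one at 7 of 32 (21.9%), led by the transcription factor REPTOR at 1632, with Pi3K21B at 705.1 and foxo at 537.4. The places of foxo were 5155, 753 and 2148, so it was not among the strong peaks of replicate 1. Hippo and growth genes had one at 5 of 18 (27.8%), and circadian genes at 4 of 16 (25%), led by the kinase sgg at 1118 and followed by the transcription factor Pdp1 at 543.5. Cytoskeleton and adhesion genes had one at 12 of 52 (23.1%), led by Vinc at 520.7. Counts in these lists are small and their exact intervals wide: that of the Hippo list runs from 9.70 to 53.5%.

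Genes of the ecdysone response and nuclear receptors, the pathway in which fly Dek is known as a coactivator, had a member at 7 of 34 (20.6%, exact interval 8.70 to 37.9%; 25.5 ± 6.12% in the replicates). The strongest were Sox14, an early target of the hormone, at 1841 and 248 bp with places 56, 58 and 52, and E23, an ecdysone-inducible transporter, at 1675 and 262 bp with places 49, 48 and 175. Ldh, which also stands in the glycolysis list, followed at 1010. Polycomb group genes had one at 6 of 24 (25%; 18.1 ± 4.81%), with Kdm2 at 390.9 and jing at 276.9 after ph-p. Trithorax genes and histone modifiers had one at 4 of 42 (9.52%), led by lola at 462.9, which also stands in the neuronal and glial list. Chromatin architecture genes had one at 5 of 34 (14.7%), with Top1 at 463.7, the high mobility group gene HmgZ at 425.8 and dre4, a histone chaperone subunit, at 300.7. Insulator protein genes had one at 2 of 20 (10%), BEAF-32 at 362.9 and mod(mdg4) at 233.5.

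Cell type and patterning lists varied. Muscle and heart genes had a member at 6 of 34 (17.6%), led by the heart determinant tin at 730.3 with org-1 at 714.5 and sls, a titin-like sarcomere protein, at 691.3. Neuronal and glial genes had one at 8 of 57 (14.0%), led by the pan-neuronal RNA-binding protein elav at 1483 and 234 bp with places 119, 83 and 87. With promoter windows of 200 and 1000 bp, muscle and heart genes with a member numbered 2 and 5, and neuronal and glial genes 4 and 11. Over all genes these counts were 1145 and 1180, against 1229 with 500 bp. Germline genes had one at 3 of 29 (10.3%), Hox and segmentation genes at 3 of 41 (7.32%; nkd, ptc and bcd), trachea, gut and epidermis genes at 2 of 26 (7.69%; bowl and trh) and hemocyte and fat body genes at 1 of 27 (3.70%; FASN1). The dorsoventral list had 1 of 33 (3.03%), the inhibitor cact at 778.8. In the replicates the trachea, gut and epidermis list averaged 15.4 ± 3.85% (SD, n = 3), above the 8.51% of all genes. The Hox and segmentation, hemocyte and fat body, and dorsoventral lists stayed below it, at 7.32, 6.17 and 6.06%.

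Other lists lay close to or below the 8.8% of all protein-coding genes, which includes genes whose surroundings do not allow a member. Mitochondrial ribosomal protein genes had a member at 3 of 75 (4%), although 34 of them had some IDR summit within 500 bp of a start site, and proteasome genes at 3 of 48 (6.25%). Oxidative phosphorylation genes had one at 7 of 78 (8.97%). Of the genes whose surroundings allow a member, 7 of 46 oxidative phosphorylation genes had one (15.22%), as did 3 of 20 mitochondrial ribosomal protein genes. Both shares lay above the 11.7% of all such genes, whereas that of the proteasome list was 10.34%. The low shares of the 2 mitochondrial lists among all their genes are thus not seen among genes that allow a member, although the counts are small. Splicing factors had 0 of 35 and nucleoporins 0 of 22, with 11 and 5 genes near some summit. Surroundings allow a member at 19 and 8 genes of these 2 lists. Members were also missing from lists of genes known mainly from later stages or adult tissues, with 0 of 121 cuticle protein genes (exact upper bound 3.00%), 0 of 180 chemosensory receptors (2.03%), 0 of 66 seminal fluid genes (5.44%), 0 of 32 Jonah and trypsin proteases (10.9%) and 0 of 23 yolk and eggshell genes (14.8%). Over the replicates, splicing factors averaged 2.86 ± 2.86%, nucleoporins 1.52 ± 2.62% and cuticle genes 0.826 ± 0.826% (SD, n = 3), and the other lists with 0 genes had none in any replicate. Cytochrome P450 genes had 4 of 83 (4.82%).

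Cell cycle and DNA replication genes had a member at 9 of 47 (19.1%), led by Dp at 782.3. Heat shock and chaperone genes had one at 6 of 37 (16.2%), led by Hsp27 at 1297 and 148 bp, translation factors at 7 of 54 (13.0%), and small GTPases and traffic genes at 7 of 57 (12.3%), led by Rab5 at 582.6. Sox and GATA factors had 4 of 15 (26.7%), and apoptosis and autophagy genes 3 of 28 (10.7%).

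**Figure D5:**
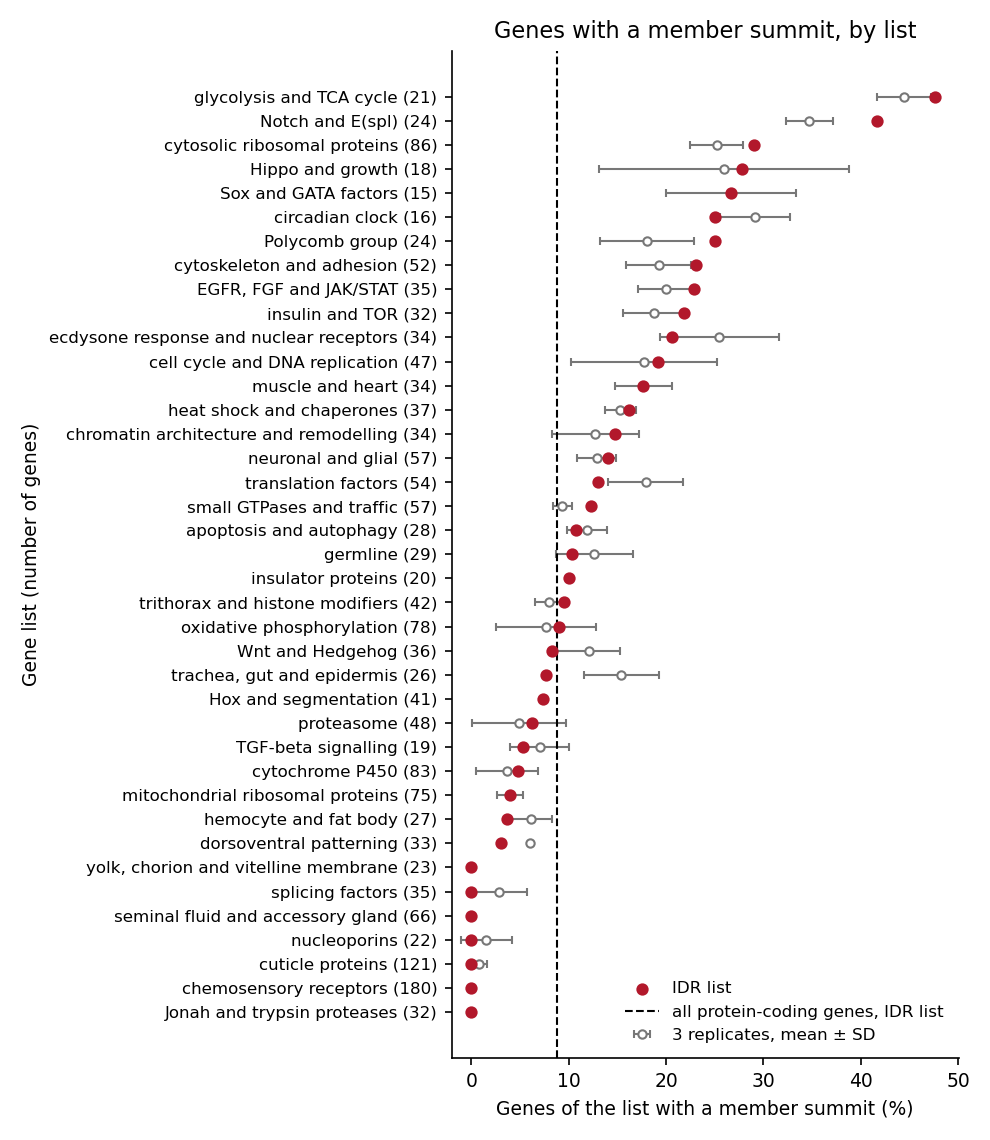
Share of genes of each list with a member summit. Red points are the IDR list, open points with bars the mean and SD of 3 replicates, and the dashed line is the 8.8% of all protein-coding genes. Glycolysis and the tricarboxylic acid cycle is highest at 47.6%, and 7 lists are at 0 in the IDR list.

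Genes with several promoters, meaning start sites more than 500 bp apart, held 599 of the members. Of these, 251 (41.9%) lay before the most upstream promoter and 348 before an internal one, with 40.1, 40.2 and 38.7% before the most upstream in replicates 1, 2 and 3. With a window of 200 bp the share before the most upstream promoter was 58.7%, so which kind held more members depended on the window. Members were found at 15.8% of most upstream promoters, at 11.2% of internal ones and at 8.62% of promoters that were the only one of their gene. By gene, 36.5% of eligible genes with 3 or more promoters had a member, against 18.7% with 2 and 8.62% with 1. More start sites give a gene more chances to meet the rule, and the rates per promoter differ less than those per gene.

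At least 2 members were found at 103 genes, of which 68 had them at separate promoters, and 14 genes had 3 or more. Rtnl1, which encodes an endoplasmic reticulum-shaping reticulon on 2L, had members at 5 of its 7 promoters, with signals from 243.2 to 1407. Its strongest, before the sixth promoter counted in the direction of transcription, stood at places 97, 142 and 92, and the one before the third at places 287, 265 and 83. At dnc, the cAMP phosphodiesterase dunce, 4 of 8 promoters had a member, with signals from 185.4 to 1148, and at Moe, the actin-membrane linker moesin, 4 of 7 did, with signals from 169.2 to 416.3. SNF4Agamma, a subunit of the AMP-activated kinase, had them at 4 of 9 promoters with signals of at most 268.3. The rest of the 14 were larp, Ptpmeg2, CG31886, bun, Svil and Hnf4, with members at 3 promoters each, and brwl, spi, Atpalpha and CG42671, with 3 members at 2 promoters. Within one gene the signals could differ widely: the 3 members of larp had 2129, 375.0 and 263.5.

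Dek itself had a weak member. Its summit lay 69 bp before the start site of Dek on 2R with a signal of 175.5, number 4333 of the 4736 IDR peaks, and its places were 6181, 4869 and 3216 in replicates 1, 2 and 3, so only replicate 3 had it among its strong peaks. A stronger summit of 424.5 lay 239 bp after the same start site, with places 1927, 1249 and 1829. The embryos carry a Dek-GFP transgene, and its part in the peaks at this locus was not tested.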

How the data were processed

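Peak lists of 3 biological replicates, their pooled list and the IDR list were deposited by the authors in narrowPeak format on dm6. The sources used here do not give the aligner, peak caller or IDR threshold, nor what the 1 further file behind each list was, and the files give no read depth. Sonicated fragments were 200 to 800 bp long per the labels, which limits how exactly a summit is placed. By the narrowPeak column order, the deposited signal is the authors' score of each peak, and the deposited −log10 q value was not used for any result. The summit is the deposited start plus the summit offset, counted from 1. In each replicate, the 4736 strongest of 30000 deposited peaks were used.

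Summits were classed against Ensembl release 115 gene models (19630 start sites of protein-coding genes on 7 arms), with sequence from RefSeq Release 6. Of 13943 shared symbols, 13941 had the same coordinates in both, and 0 peaks lay beyond an arm. Analyses used Python 3.11.15, numpy 2.4.6, pandas 2.3.3, scipy 1.17.1 and matplotlib 3.10.9. Functions were checked on simulated data. Replicate means are compared by an exact sign-flip permutation test over 3 replicates. No untagged or input sample was analysed here, so no value is set against background precipitation. Replicates are separate biological samples per the labels.

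Promoter sequences other than those printed are not reported here. Members, motifs and the 39 gene lists were chosen with earlier results of these data known. Genes named are those of the 15 strongest members, up to 3 strongest per list, the 3 nearest and 3 farthest of the 100 strongest, genes with 3 or more members, and Dek. Other members of the glycolysis and Notch lists, Jwa, CG6966 and the genes at the 500 bp bound were named after their values were seen. Alternatives were the strongest 2368 peaks, windows of 200 and 1000 bp, no non-coding start site nearby, each replicate left out, 1 summit per gene, and narrower or wider matching.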

Additional observations from a re-analysis of the deposited data

How the results depend on the processing

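No paired analysis was possible because all samples form 1 group. In the strongest 2368 IDR peaks, the upstream over downstream density ratio was 9.95, the percentile difference to downstream-side peaks -1.73, the share found in all 3 replicates 81.6%, DRE at summits 4.49%, the most upstream share 39.6% and genes with a member 674. The promoter difference was there -0.553 points for DRE and 0.249 points for G and C. With a 200 bp window, the member share was 24.8%, the median distance 106 bp, DRE at summits 10.5%, the most upstream share 58.7% and the GAGA promoter difference -1.38 points. With a 1000 bp window, the median distance was 208 bp, the percentile difference 11.8, the most upstream share 37.6% and the promoter G and C difference 0.410 points. Excluding non-coding start sites gave a member share of 26.6% and a most upstream share of 40.95%. All replicate peaks gave 84.8% found in all 3, windows of 50 bp gave DRE at 3.63%, and promoters 1000 bp apart gave a most upstream share of 43.8%. Leaving out each replicate in turn gave member shares of 29.2 to 30.3%, median distances of 149.5 to 180.0 bp, density ratios of 5.80 to 11.85, percentile differences of -5.50 to 24.8, shares found in every remaining replicate of 56.1 to 69.4%, G and C dips of -9.20 to -7.71 points, DRE at summits of 5.66 to 7.13%, most upstream shares of 38.3 to 40.4% and 712 to 872 genes. Promoter G and C differences were then -0.180 to 0.335 points, at 0.0806 without replicate 1 and 0.335 without replicate 2. Fewer summits enter the shorter lists by construction, and the cause of the other shifts was not tested. Of the gene lists, only cytosolic ribosomal proteins, glycolysis and Notch enter the alternative values counted below. Their counts moved by over 1.5 times for 16 ribosomal and 5 glycolytic genes in the strongest 2368 peaks and 6 Notch genes at 200 bp. Other lists were recounted only with windows of 200 and 1000 bp. At 200 bp, Sox and GATA factors had 1 gene with a member, circadian genes 2 and ecdysone genes 4, against 4, 4 and 7. Mitochondrial ribosomal protein genes rose to 9 and chromatin architecture genes to 8, against 3 and 5. Of 249 alternative values, 156 stayed within 1 replicate SD, within 1.5 times for counts, or within the 95% exact interval for the share found in all 3 replicates, 85 moved further with the same sign and 8 reversed. Depth is unknown, so no value has a reading-depth error, and motif differences between members and other promoters, and between signal groups, were added to the alternatives after seeing the data.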
